A study of Mus musculus with 4 samples.

Results

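Acyl-CoA synthetases join a fatty acid to coenzyme A, the step that commits it to oxidation, esterification or elongation. Of 10 genes chosen by name, 5 of the long-chain Acsl family, 3 of the medium-chain Acsm family and 2 of the short-chain Acss family, 9 had probes that carried only that gene's symbol, 14 probes in all, among 19087 genes measured. Acsl1, the main long-chain synthetase of liver, had 0 such probes and is not analysed further. Values were log2 ratios as the authors deposited them, averaged over a gene's probes.

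The samples were livers of male C57Bl/6 mice aged 9 months. The treated animals were 4 Wrn mutants, which lack a working helicase domain in the RecQ helicase Wrn and had received resveratrol, a plant polyphenol. They were compared with 2 untreated wild-type animals. Each of 4 arrays held 1 treated mutant and 1 wild-type animal in different dyes: arrays 1 and 3 shared wild-type animal 2, arrays 2 and 4 shared wild-type animal 4, and the mutant was in Cy5 on arrays 1 and 2 and in Cy3 on arrays 3 and 4. Genotype and treatment differed together, so their effects cannot be told apart, and the sources used here do not give the dose of resveratrol.

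A positive value is likely treated mutant over wild type, a direction read from how the title and the channels name the groups and not settled by the dyes. Whether the arrays with the mutant in Cy3 run the same way as the others is also not stated. Over all probes the correlation was 0.19 and 0.21 within a dye orientation and from -0.18 to 0.11 across orientations. With a trend over the array surface subtracted, it was 0.21 and 0.23 within and from 0.016 to 0.18 across. The values are used as deposited. Those with arrays 3 and 4 turned are given for the 9 members, for other named genes whose sign reversed and for some more. Wrn itself averaged 0.12 ± 0.73 (SD, n = 4 arrays), with the means of its 4 probes from -0.50 to 0.57, and the position of these probes relative to the mutation is unknown, so they check no label. The ratios hold no expression level, so the tissue label could not be set against liver markers, and a gene near background cannot be recognised.

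In liver, long-chain acyl-CoAs feed beta-oxidation, triglyceride and phospholipid synthesis, and different Acsl enzymes sit on different membranes. Acsm enzymes act in the mitochondrial matrix on medium-chain fatty acids and on aromatic acids such as benzoate, which are then conjugated to glycine. Acss enzymes activate acetate and propionate. Long-chain acyl-CoA made outside the mitochondrion enters it through the carnitine shuttle, whereas medium-chain and short-chain acids can cross its membranes and be activated inside.

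Promoter windows are shown for 5 genes, with members of each class and means from -0.37 (Acsm3) to 0.91 (Acsm1). Acss3, the lowest gene, had no window in the table used. RefSeq (GRCm38.p6) held 12 windows of 300 bases, from 250 before to 50 after a start, for 9 of the 10 genes. Capitals mark 4 motifs found on either strand. One is CCAAT, a common promoter box, and another is the GC box, spelled GGGCGG. The E-box searched was CACGTG. The nuclear receptor half-site searched was AGGTCA. No marked motifs overlap in these 5 windows. The windows lie at chr1:78657575-78657874 (+) for Acsl3, chr7:119617562-119617861 (+) for Acsm1, chr7:119760673-119760972 (+) for Acsm3, chr7:119526015-119526314 (+) for Acsm5 and chr2:150668191-150668490 (-) for Acss1, each written 5′ to 3′ on the gene's strand.
Acsl3: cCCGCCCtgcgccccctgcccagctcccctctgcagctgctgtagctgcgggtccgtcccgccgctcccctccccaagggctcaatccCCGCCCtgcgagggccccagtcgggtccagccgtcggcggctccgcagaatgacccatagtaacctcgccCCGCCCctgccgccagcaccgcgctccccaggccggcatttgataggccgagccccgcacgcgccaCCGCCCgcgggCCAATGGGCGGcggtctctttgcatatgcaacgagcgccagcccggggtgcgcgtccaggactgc
Acsm1: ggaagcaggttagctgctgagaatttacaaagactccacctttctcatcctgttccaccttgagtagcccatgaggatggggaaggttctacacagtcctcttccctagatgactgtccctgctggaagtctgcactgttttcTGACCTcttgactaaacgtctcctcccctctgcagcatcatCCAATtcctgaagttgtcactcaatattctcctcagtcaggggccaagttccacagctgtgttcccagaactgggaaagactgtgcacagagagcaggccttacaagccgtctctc
Acsm3: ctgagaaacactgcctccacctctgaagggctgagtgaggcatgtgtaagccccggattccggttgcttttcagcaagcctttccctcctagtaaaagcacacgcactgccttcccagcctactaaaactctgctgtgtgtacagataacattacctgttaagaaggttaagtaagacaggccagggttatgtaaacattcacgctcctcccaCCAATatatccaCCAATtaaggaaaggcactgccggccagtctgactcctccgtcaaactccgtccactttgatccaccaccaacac
Acsm5: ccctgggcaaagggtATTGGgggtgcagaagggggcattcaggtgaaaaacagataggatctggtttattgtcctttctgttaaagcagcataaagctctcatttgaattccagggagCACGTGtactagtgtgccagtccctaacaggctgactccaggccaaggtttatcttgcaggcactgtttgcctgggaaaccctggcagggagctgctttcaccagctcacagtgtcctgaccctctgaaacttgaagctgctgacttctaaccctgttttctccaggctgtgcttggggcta
Acss1: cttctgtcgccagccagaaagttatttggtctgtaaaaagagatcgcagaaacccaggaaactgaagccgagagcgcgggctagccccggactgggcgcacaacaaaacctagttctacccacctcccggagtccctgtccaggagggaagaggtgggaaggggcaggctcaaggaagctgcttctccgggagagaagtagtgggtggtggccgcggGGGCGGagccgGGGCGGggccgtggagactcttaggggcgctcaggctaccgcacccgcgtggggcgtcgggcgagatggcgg

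The Acsl3 window was 74.0% G and C and held 5 GC boxes, and that of Acss1 was 64.3% with 2, while those of Acsm1 and Acsm5 were 50.7% and 51.3% with 0, and that of Acsm3 also held 0. The median over all 32851 windows was 52.7%, and 35.7% of windows held a GC box. Acsl5 resembled the Acsm genes, at 53.0% with 0 GC boxes. CCAAT stood in a window of 7 of the 9 genes and in 37.4% of all windows. Acsm5 alone among the 9 held CACGTG (7.15% of all windows), and AGGTCA stood in Acsm1 and in 1 of the 3 windows of Acsl6 (16.3% of all windows). The direct repeat of AGGTCA with 1 base between its copies, the form PPAR binds, was in 0 member windows and in 0.0396% of all windows. The sterol element TCACNCCAC, present in 1.24% of all windows, was in 1 window of Acsl1, the gene with no ratio. These are matches of letters in short windows and say nothing of binding.

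None of the 9 measured synthetases passed limma's threshold (0 of 9 at an adjusted p under 0.05, where 0.246% of all genes passed, 0.0786% higher and 0.168% lower). At an unadjusted p under 0.05 there were 4 of 9 (Acsm1, Acss3, Acsl3 and Acsm5), against 6.64% of all genes. Above 0 on all 4 arrays were 4 of 9 (Acsl3, Acsm1, Acsm5 and Acss1), against 7.69% of all genes, and 0 of 9 lay below 0 on all arrays, against 8.16%, so 4 of 9 kept one sign, against 15.9% of all genes. The median of the 9 means was 0.084, and that of all genes -0.0046. With arrays 3 and 4 turned, 0 of all genes passed limma's threshold (1518 at an unadjusted p under 0.05), so every call below rests on the deposited orientation. In bulk tissue a change in the number of cells of a type and a change in RNA per cell cannot be told apart.

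**Figure D1:**
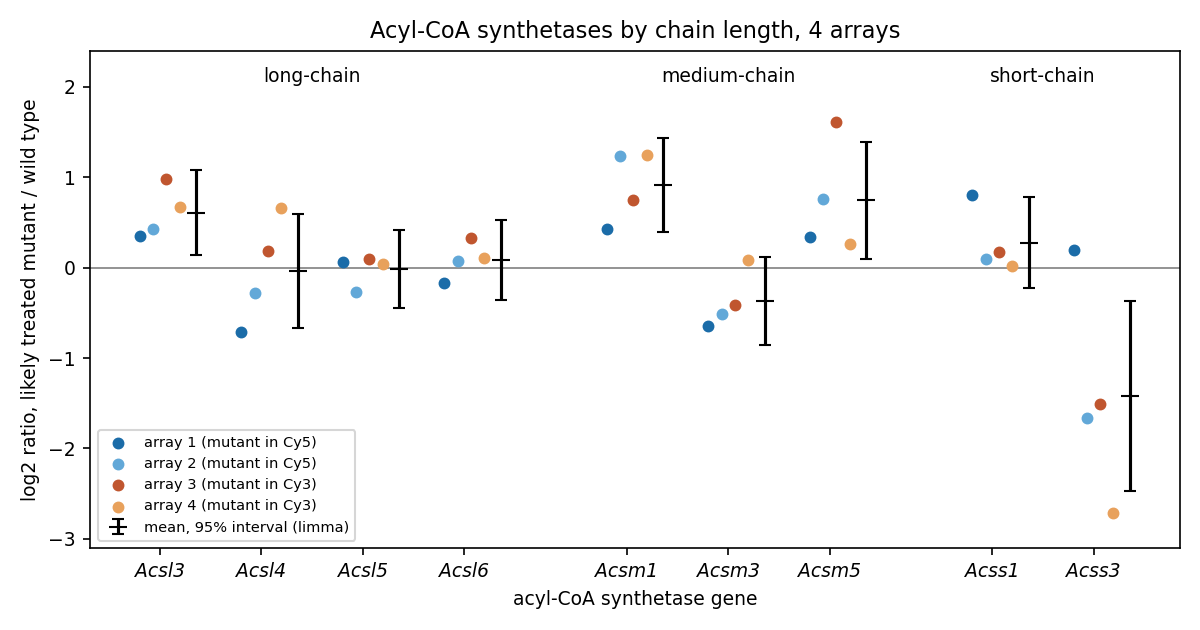
Log2 ratios (vertical axis, likely treated mutant over wild type) of 9 acyl-CoA synthetase genes on each of 4 arrays (points), with the mean and limma's 95% interval (bars), grouped by chain length. Acsm1, Acsm5, Acsl3 and Acss1 lie above 0 on every array, and Acss3 spans 0.20 on array 1 to -2.72 on array 4.

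Among the long-chain genes, Acsl3, whose enzyme sits on the endoplasmic reticulum and on lipid droplets, stood highest. Its single probe gave 0.35, 0.43, 0.98 and 0.67 on arrays 1 to 4, all above 0. The mean was 0.61 ± 0.28 (SD, n = 4 arrays), a 1.52-fold ratio with a 95% interval of 1.10-fold to 2.11-fold, and it did not pass limma's test (adjusted p = 0.581). Acsl3 exceeded each of the other measured long-chain genes on 4 of 4 arrays, by 0.64 ± 0.45 over Acsl4, 0.62 ± 0.25 over Acsl5 and 0.52 ± 0.12 over Acsl6, differences that were not tested.

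Acsl4, which prefers arachidonic acid and so shapes the polyunsaturated content of phospholipids, differed in sign between the dye orientations. It had -0.71 and -0.28 on the arrays with the mutant in Cy5 and 0.18 and 0.66 on those with the mutant in Cy3. The orientations did not overlap, which also held for Acsl3, Acsl6 and Acsm3. The share of all genes without such overlap was not counted, so the lack of overlap is not read as a trait of these genes. The mean was -0.036 ± 0.59, and limma's 95% interval of -0.66 to 0.59 runs to 1.58-fold lower and 1.51-fold higher (adjusted p = 0.994). A limma fit with a dye coefficient gave it an adjusted p of 0.572 for dependence on the dye. Its 2 probes averaged 0.0059 and -0.077.

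Acsl5, found on mitochondria and the endoplasmic reticulum and abundant in liver and intestine, was the least variable of the 9. It had 0.064, -0.26, 0.097 and 0.040 on arrays 1 to 4. These values lie on either side of 0 and average -0.016 ± 0.17 (limma 95% interval -0.45 to 0.42, adjusted p = 0.996). The interval bounds a change at 1.36-fold lower and 1.33-fold higher.

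Acsl6, a long-chain synthetase best known from brain, averaged 0.084 ± 0.21, with -0.17, 0.074, 0.33 and 0.10 on arrays 1 to 4. This narrow spread hides probes that disagreed: the means of its 4 probes were 0.69, 0.49, -0.099 and -0.74. The highest rests on array 3, where that probe read 2.71 against -0.21 to 0.29 elsewhere. Of 6 neuron and glia markers measured, 0 passed limma's threshold and the list median was 0.11. In the red blood cell list 1 of 8 markers rose (Alas2) and 7 did not pass, with a list mean of 0.46 ± 0.12, from 0.30 to 0.58 by array. By mean, 6 of the 8 markers were above 0 and 2 below. Alas2, Hba-a1 (1.03), Hbb-bt (0.65) and Epb42 (0.62) were above 0 on all 4 arrays, where 7.69% of all genes were. Car2, at -1.35, was below 0 on all 4 arrays (limma adjusted p = 0.0703). Slc4a1 was at 0.34, Klf1 at -0.083 and Gata1 at 0.023. All of these but Alas2 were named after their values were seen. Red cell markers were read because Acsl6 is also known from red cells, and the part of blood in the Acsl6 values was not tested.

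The medium-chain genes did not move together. Acsm1, a mitochondrial butyrate and medium-chain synthetase, had the highest mean of the 9. It had 0.43, 1.24, 0.75 and 1.24 on arrays 1 to 4, every value above 0. The mean was 0.91 ± 0.40 (SD, n = 4 arrays), or 1.88-fold with a 95% interval of 1.31-fold to 2.71-fold, and 2.35% of all genes had a mean further from 0. It did not pass limma's test (adjusted p = 0.309). The ratio was 0.83 with the mutant in Cy5 and 0.995 with the mutant in Cy3, and 0.59 against wild-type animal 2 and 1.24 against wild-type animal 4.

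Acsm5, another mitochondrial member of the family, had 0.34, 0.76, 1.61 and 0.26. All lay above 0, but array 3 stood well above the rest, and the mean of 0.75 ± 0.62 did not pass limma's test (95% interval 0.10 to 1.39, adjusted p = 0.666). Without array 3 the mean was 0.46. Acsm3, first described as the SA gene in hypertensive rats, lay on the other side, at -0.65, -0.51, -0.41 and 0.089. Its mean was -0.37 ± 0.32 (limma 95% interval -0.86 to 0.11, adjusted p = 0.83). Acsm1 exceeded Acsm3 on 4 of 4 arrays, by 1.29 ± 0.31.

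In the reference annotation the Acsm genes follow each other on mouse chromosome 7 in the order Acsm5, Acsm2, Acsm1, Acsm4 and, after Thumpd1 and Ppp1ccb, Acsm3. The mean ratios in that order were 0.75, 0.072, 0.91, 0.10 and -0.37, in no shared direction. The 3 probes of Acsm2 averaged 0.75, -0.11 and -0.43. Acsm4 had a single probe at 0.10 ± 0.52. Cross-hybridisation between these related genes was not tested.

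The short-chain genes parted most. Acss3, a mitochondrial enzyme that activates propionate in rat liver, was the lowest of the 9. It had 0.20 on array 1 and -1.67, -1.503 and -2.72 on arrays 2 to 4. Array 1 thus stood above 0 and the other 3 below it. The mean was -1.42 ± 1.21 (SD, n = 4 arrays), 2.68-fold lower with a 95% interval of 1.29-fold to 5.56-fold lower, and 0.744% of all genes had a mean further from 0. It did not pass limma's test (adjusted p = 0.545). Without array 1 the mean was -1.96. By wild-type animal the ratio was -0.65 against animal 2 and -2.19 against animal 4, and by dye it was -0.73 in Cy5 and -2.11 in Cy3.

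Acss1, the mitochondrial acetyl-CoA synthetase, had 0.81, 0.091, 0.18 and 0.021. Its mean was 0.27 ± 0.36 (limma 95% interval -0.23 to 0.78, adjusted p = 0.886), and its 2 probes averaged 0.53 and 0.019. The highest value of Acss1 and the only positive value of Acss3 fell on the same array, array 1. Acss1 exceeded Acss3 on 4 of 4 arrays, by 1.70 ± 0.87, the widest gap between members within a class.

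Genes of the medium-chain and short-chain classes lay further apart from each other than the class means did. The long-chain mean over 4 genes was -0.12, -0.0098, 0.40 and 0.37 on arrays 1 to 4, or 0.16 ± 0.26. The medium-chain mean over 3 genes was 0.040, 0.50, 0.65 and 0.53, or 0.43 ± 0.27, above 0 on every array. The short-chain mean over 2 genes was 0.50, -0.79, -0.66 and -1.35, or -0.57 ± 0.78 (SD, n = 4 arrays). The means of single genes spanned 0.64 within the long-chain, 1.29 within the medium-chain and 1.70 within the short-chain class.

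Long-chain minus medium-chain was -0.27 ± 0.16 and below 0 on 4 of 4 arrays, from -0.16 to -0.51. Long-chain minus short-chain was 0.73 ± 0.98 and medium-chain minus short-chain 1.00 ± 1.01, each above 0 on 3 arrays and below it on array 1, so neither exceeded the spread between arrays. These last differences rest on Acss3. Without it they were -0.11 and 0.16. No test was made on class means, because the genes were chosen by name with results of these arrays known.

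**Figure D2:**
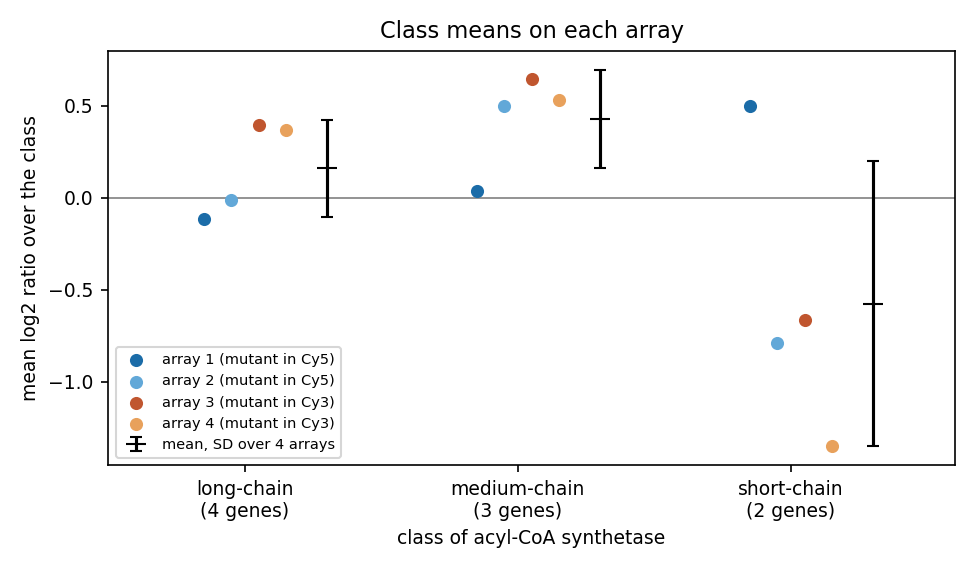
Mean log2 ratio over the genes of each class (vertical axis) on each of 4 arrays (points), with the mean and SD over arrays (bars). The medium-chain class is above 0 on all arrays, at 0.040 to 0.65, and the short-chain class spreads from 0.50 on array 1 to -1.35 on array 4.

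Ordered by mean, the genes ran Acsm1, Acsm5, Acsl3, Acss1, Acsl6, Acsl5, Acsl4, Acsm3 and Acss3. Of the 8 steps between neighbours, only that from Acsl4 to Acsm3 (0.34 ± 0.31) exceeded the SD of its own difference over arrays. The ends of the order lay apart on 4 of 4 arrays, by 2.34 ± 1.57 between Acsm1 and Acss3. With arrays 3 and 4 turned, Acsm1 was at -0.081, Acsm5 at -0.19, Acsl3 at -0.22 and Acss3 at 0.69. Acsl4 was then at -0.46, Acsl5 at -0.085, Acsl6 at -0.13, Acsm3 at -0.21 and Acss1 at 0.18. Again 0 of 9 passed limma's threshold.

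Among the other acyl-CoA synthetases, 12 of 13 did not pass, 1 fell and 0 rose, and the median was -0.086. The one that fell was Slc27a1, a fatty acid transport protein of the plasma membrane that also activates long-chain fatty acids. It had -1.92, -2.19, -1.56 and -1.86 on arrays 1 to 4, all below 0. The mean was -1.88 ± 0.26, 3.69-fold lower, likely in treated mutants (limma adjusted p = 0.0341), and its 2 probes averaged -2.67 and -1.09. The call was lost when any array was left out, at limma adjusted p-values from 0.0922 to 0.316, while the mean stayed between -1.99 and -1.78, and also with the arrays scaled to one spread (limma adjusted p = 0.0578). With arrays 3 and 4 turned the mean was -0.17. Slc27a2, the very-long-chain synthetase of peroxisomes and endoplasmic reticulum, averaged -0.995 ± 0.31 and was below 0 on every array (limma adjusted p = 0.196).

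Acss2, the cytosolic and nuclear acetyl-CoA synthetase and a classical target of sterol regulatory element binding proteins was high on some probes only. Its gene mean was 0.85, 1.15, 0.99 and 1.08 on arrays 1 to 4, or 1.02 ± 0.13, and did not pass limma's test (adjusted p = 0.123). It did pass with the wild-type animal as a block (limma adjusted p = 0.0302), a less strict fit that 194 of all genes passed. With the surface trend subtracted it passed too (limma adjusted p = 0.0456), and it was at -0.017 with arrays 3 and 4 turned. The 2 probes annotated to its RefSeq mRNA averaged 2.34 ± 0.28 and 1.97 ± 0.82, and the 2 annotated to other cDNA records averaged 0.019 ± 0.34 and -0.26 ± 1.05. With the RefSeq mRNA probes alone, a choice made after the values were seen, Acss2 was at 2.15 with a limma adjusted p of 0.0376, and the probe at 2.34 also passed by itself (limma adjusted p = 0.0377, where 0.104% of all probes passed). Under that choice 58 of all genes passed and still 0 of the 9 members.

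**Figure D3:**
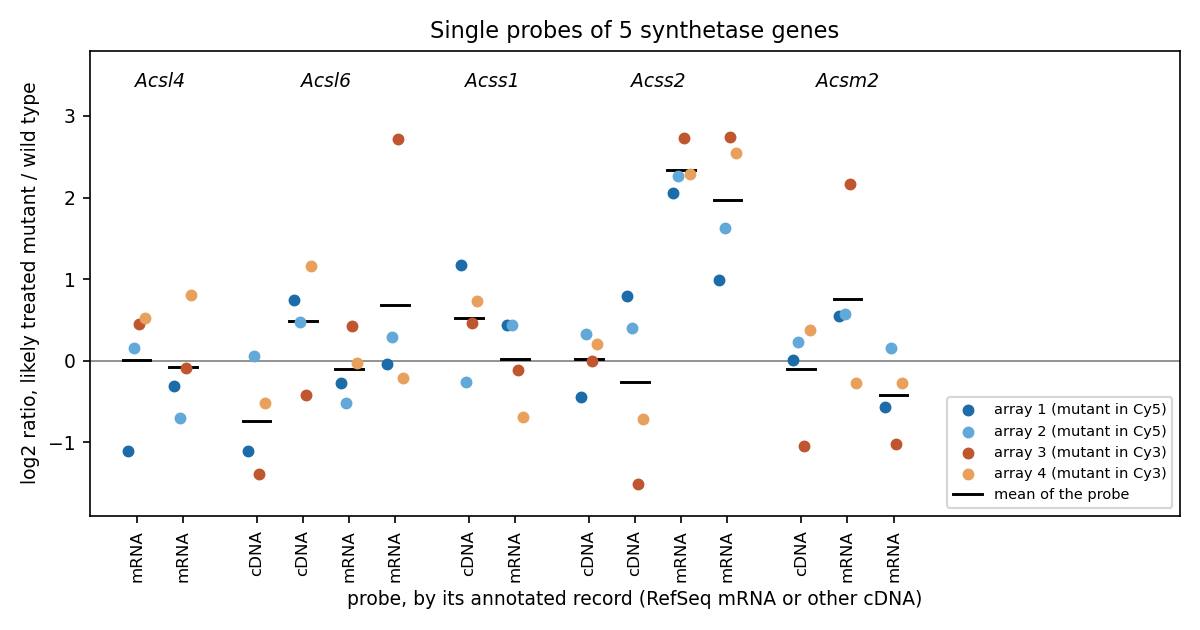
Log2 ratios (vertical axis, likely treated mutant over wild type) of single probes of Acsl4, Acsl6, Acss1, Acss2 and Acsm2 on each of 4 arrays (points), with the mean of each probe (bars), by the kind of record the probe is annotated to. The RefSeq mRNA probes of Acss2 lie between 0.98 and 2.74, and the probes of Acsl6 and Acsm2 lie on either side of 0.

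Aacs, which activates acetoacetate in the cytosol for lipid synthesis, had 1.81, 1.94 and 1.66 on arrays 1 to 3 and -0.15 on array 4. Its mean of 1.31 ± 0.99 did not pass limma's test (adjusted p = 0.469). The remaining genes of this list had means from -0.33 to 0.29. All of them but Slc27a5 had arrays on both sides of 0. Slc27a5, the bile acid and very-long-chain synthetase of hepatocytes, averaged 0.16 ± 0.10, Slc27a4 -0.14 ± 0.34 and Slc27a3 -0.12 ± 0.85. The mitochondrial genes Acsf2 and Acsf3 (a malonyl-CoA synthetase) averaged -0.086 ± 0.31 and -0.33 ± 0.42. The bubblegum-type genes Acsbg1 and Acsbg2 averaged -0.15 ± 0.56 and 0.29 ± 0.82 (SD, n = 4 arrays).

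The carnitine shuttle takes over acyl groups from the long-chain synthetases. A list of its genes, with other carnitine acyltransferases and the carnitine transporter gene Slc22a5, had a median below that of each synthetase list. Single synthetases lay within the range of this carnitine list: Slc27a1 at -1.88, Acss3 at -1.42 and Slc27a2 at -0.995. All 8 measured genes of this list were below 0 on all 4 arrays, where 8.16% of all genes were. The list median was -1.39, and 1 of 8 passed (lower). Cpt1a, the carnitine palmitoyltransferase that gates entry, fell to -1.76 ± 0.23, likely in treated mutants (limma adjusted p = 0.0380). Its call was lost when any array was left out (limma adjusted p 0.0814 to 0.316, means -1.85 to -1.66) and with arrays scaled to one spread (0.0713). With arrays 3 and 4 turned it was at 0.13. The others did not pass: Crat averaged -1.89 ± 0.97, Slc22a5 -1.52 ± 0.61, Slc25a20 -1.39 ± 0.25, Cpt2 -1.38 ± 0.27, Crot -1.22 ± 0.32, Cpt1b -1.005 ± 0.30 and Cpt1c -0.55 ± 0.24. The 2 probes of Cpt1b disagreed, at -0.12 and -1.89. A random block for the shared wild-type animal gave an estimated correlation of -0.37 between arrays sharing an animal. A negative correlation narrows the error of the mean, and 194 of all genes passed there, against 47 as reported. In that less strict fit 5 of these genes passed. Their limma adjusted p-values were 0.0365 for Crat, 0.0378 for Slc22a5, 0.0139 for Slc25a20, 0.0139 for Cpt2 and 0.0226 for Crot. Slc22a5, Slc25a20 and Crot also passed with the surface trend subtracted (limma adjusted p 0.0398 to 0.0435), and Crat without array 1 (0.0470). The list mean was -1.05, -1.40, -1.49 and -1.42 on arrays 1 to 4, below the long-chain class mean on each. That class mean lacks Acsl1, the main long-chain synthetase of liver, which had no value.

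Genes further along the pathway differed by step. In mitochondrial beta-oxidation 3 of 12 fell (Acadm -1.81, Acadl -1.58 and Eci1 -1.53, which encode acyl-CoA dehydrogenases and an enoyl-CoA isomerase), with a list median of -0.68, and each of these calls was lost when any array was left out, while the means stayed at -1.95 to -1.72 for Acadm, -1.71 to -1.48 for Acadl and -1.63 to -1.47 for Eci1. All 3 were also lost with arrays scaled to one spread (limma adjusted p 0.0634 to 0.0875), and Acadl and Eci1 with a dye coefficient (0.0697 each). Of 13 thioesterases, which undo activation by splitting acyl-CoA, Acot4 fell (-2.56 ± 0.24, limma adjusted p = 0.01005, lost without array 2 at 0.173 and without array 4 at 0.138), with a list median of -0.45. Among 5 acyl-CoA binding protein genes 0 passed (median 0.098, Dbi 0.32 ± 0.40). Among 17 glycerolipid acyltransferases 0 passed, with a median of 0.038. Gpam, which starts triglyceride synthesis from acyl-CoA, lay at the threshold, at 1.47 ± 0.22 (limma adjusted p = 0.0502). It passed in the less strict fit with the wild-type animal as a block (limma adjusted p = 0.0108). It also passed with the surface trend subtracted (limma adjusted p = 0.0474), arrays centred (0.0497) or RefSeq mRNA probes alone (0.0455). With any array left out it did not (limma adjusted p 0.148 to 0.393). Glyat, which conjugates benzoyl-CoA made by Acsm enzymes to glycine, averaged 0.49 ± 0.42 and did not pass.

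**Figure D4:**
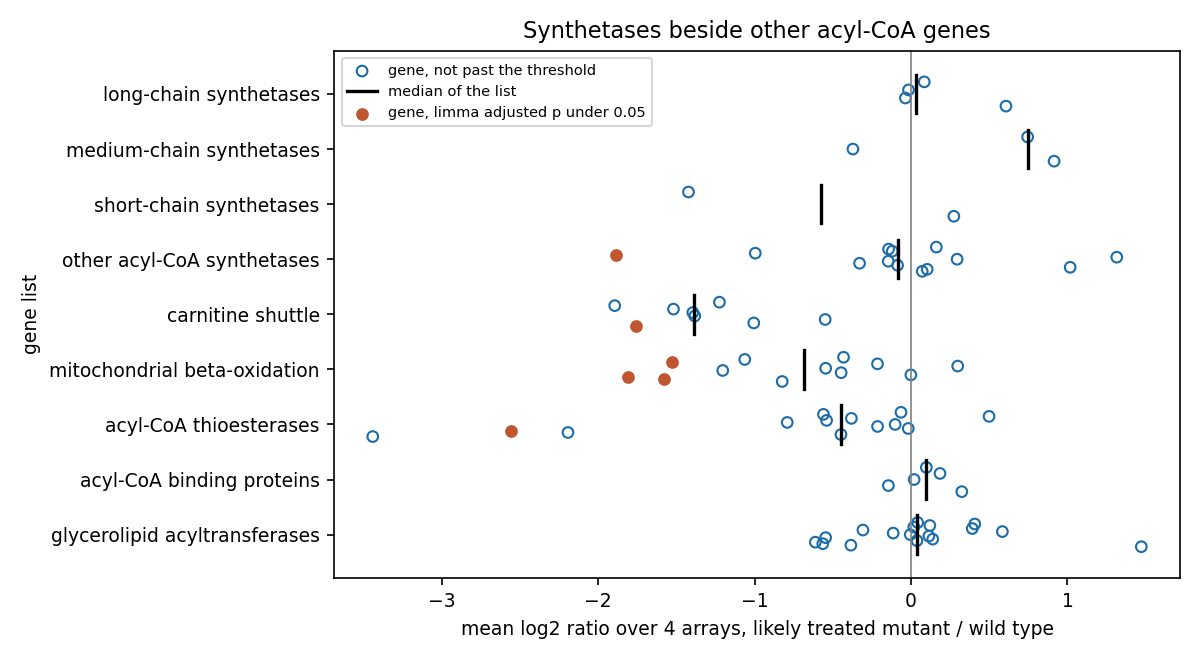
Mean log2 ratio over 4 arrays (horizontal axis, likely treated mutant over wild type) of each gene in 9 lists around acyl-CoA, with list medians (bars) and genes past limma's threshold filled. The synthetase classes have medians of 0.034, 0.75 and -0.57, and all 8 genes of the carnitine shuttle list lie below 0.

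By root mean square difference over the 4 arrays, the genes outside the family most like Acsm1 were Zfand4 (0.11), Ces2a (0.13) and Psen2 (0.13), with means of 0.86, 0.87 and 0.83. Those most like Acss3 were Slc25a47 (0.45), Acaa1b (0.47) and Pex11a (0.50), with means of -1.62, -1.38 and -1.71. Their values on array 1 were -0.66, 0.0025 and -0.68, above those on arrays 2 to 4, while Acss3 was at 0.20 there. The choice by likeness used array 1 too, so a shared pattern there is no separate result. The likeness is a description over 4 arrays, and none of these 6 genes passed limma's threshold.

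Markers of other cell types were read beside the synthetases, and their part in the synthetase values was not tested. In the lists of hepatocytes (Ass1 1.19), Kupffer cells (Cd5l 0.44), endothelial cells (Egfl7 -0.71), stellate cells (Colec11 -0.53), bile duct cells (Cdh1 0.72), lymphocytes (Ighm 0.57), neutrophils (Lcn2 -1.34) and neurons and glia (Snap25 0.30) 0 genes passed. Each gene in brackets had the smallest p of its list and does not stand for the list. List means lay between -0.22 and 0.30, and list medians between -0.11 and 0.21. Alas2, which makes heme in red cells, rose to 2.45 ± 0.48, and the lipid droplet gene Plin4 of the adipocyte list fell to -2.02 ± 0.53 (limma adjusted p = 0.0324 and 0.0468). The adipocyte list did not follow Plin4. Of its 6 measured genes 5 did not pass, 2 had means above 0 and 4 below, and the list median was -0.021. Alas2 lost its call without array 2, 3 or 4 (limma adjusted p 0.109 to 0.291) and with arrays scaled to one spread (0.0566), and was at 0.014 with arrays 3 and 4 turned. Plin4 lost its call without any 1 array (limma adjusted p 0.0922 to 0.332), with scaled arrays (0.0787) and with a dye coefficient (0.0774). Ass1 passed in the less strict fit with the wild-type animal as a block (limma adjusted p = 0.0302) and with the surface trend subtracted (0.0435). As these are ratios, whether a defining marker is at background cannot be read from them.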

How the data were processed

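Liver RNA was measured on 4 arrays with 2 dyes, 43379 probes each. Per the submitters' processing notes the authors used limma, and the deposited log2 ratios, 1 per probe and array, had medians from -0.0083 to 0.012. The sources used here do not state log base, background correction, normalization or direction, and fold values take the base as 2. Scanner signals were not analysed, so the number of arrays limits the precision. Of the probes, 33653 had 1 gene symbol in the platform annotation, 56 several and 9670 none. Ratios were averaged over a gene's probes and tested against 0 with limma 3.58.1 in R 4.3.3 (intercept only, eBayes, two-sided, Benjamini-Hochberg over 19087 genes, threshold 0.05), tested on simulated data first. The 2 wild-type animals are each shared by 2 arrays, so the arrays are not independent. Members and lists were chosen with earlier results of these data known. Named were all members, the other synthetases and shuttle genes, in other lists the genes past the threshold or else that with the smallest p, and the 3 genes most like each of the 2 members with the smallest p. Alternatives covered orientation, dye, wild-type animal, scaling, centring, probe summary, single probes, a trend over the array surface and left-out arrays. Intervals are limma's 95% intervals.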

Additional observations from a re-analysis of the deposited data

Results flagged for a closer look

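Of 53 genes and class values examined, 4 had an array that stood apart from the rest by most of their whole range, where chance gives about 1 in 20. Acsl5 had -0.26 on array 2, with 0.040 to 0.097 on the others. Aacs had -0.15 on array 4, with 1.66 to 1.94 on the others. Slc27a2 had -0.54 on array 3, with -1.22 to -1.11 on the others. Colec11 had -0.26 on array 2, with -0.64 to -0.61 on the others.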

How the results depend on the processing

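No member passed the threshold in limma under any of the 17 alternatives run (4 of 9 at an unadjusted p under 0.05 in the reported fit), whereas the number of all genes past it, 47 as reported, did depend on the processing. It was 0 with arrays 3 and 4 turned (1518 at an unadjusted p under 0.05), 0 to 34 when an array was left out (34 without array 1, 0 without array 2, 9 without array 3, 0 without array 4), 194 when the shared wild-type animal was a random block, 15 with arrays scaled to one spread, 122 with the array surface trend subtracted (54 higher and 68 lower, against 15 and 32 as reported), and 0 within each dye orientation and each wild-type animal, with 2 arrays each. The block fit estimated a correlation of -0.37 between arrays sharing an animal. A negative correlation narrows the error of the mean, so that count comes from a less strict fit. The calls of Slc27a1, Cpt1a, Acadm, Acadl, Eci1 and Plin4 were lost with any array left out. No paired analysis was possible because the arrays form 1 group and each already pairs a mutant with a wild-type animal. The class differences moved by less than their SD except with arrays 3 and 4 turned, which gave -0.063 for long-chain minus medium-chain, -0.65 for long-chain minus short-chain and -0.59 for medium-chain minus short-chain. The SDs of the last 2 (0.98 and 1.01) exceed the differences themselves (0.73 and 1.00), so a fall to 0 would not count as a move. Long-chain minus short-chain was 0.079 with the mutant in Cy5 and 1.39 in Cy3, and 0.22 and 1.25 against wild-type animals 2 and 4. Medium-chain minus short-chain was 0.42 and 1.58 against these animals. Long-chain minus medium-chain was -0.33 with the mutant in Cy5 and -0.21 in Cy3. The other genes named were run under the same alternatives, and this, the RefSeq mRNA probes and the class differences without Acss3 or Acsl6 were chosen after seeing the data.

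Signs reversed in 19 member values (139 kept sign and side of the threshold) and in 45 values of other named genes. With arrays 3 and 4 turned they were -0.22 for Acsl3, -0.13 for Acsl6, -0.081 for Acsm1, -0.19 for Acsm5, 0.69 for Acss3, -0.017 for Acss2, 0.26 for Acsf2, 0.21 for Acsbg1, -0.13 for Acsbg2, 0.22 for Slc27a4, -0.070 for Slc27a5, 0.13 for Cpt1a, 0.21 for Cpt1c, 0.22 for Cpt2, 0.18 for Slc25a20, 0.61 for Crat, 0.064 for Acot4, 0.15 for Acadl, 0.24 for Acadm, 0.13 for Eci1, -0.31 for Dbi, -0.31 for Glyat, -0.073 for Cd5l, 0.014 for Egfl7, 0.092 for Colec11, -0.56 for Cdh1, -0.074 for Ighm and -0.31 for Snap25. With the mutant in Cy3 they were 0.42 for Acsl4, 0.069 for Acsl5, -0.014 for Acsm2, -0.23 for Acsm4 and 0.51 for Slc27a3, and with the mutant in Cy5 -0.049 for Acsl6, 0.17 for Acsf2, 0.069 for Acsbg1, 0.072 for Slc27a4 and -0.015 for Snap25. Against wild-type animal 2 they were 0.080 for Acsl5, -0.029 for Acsm4, -0.10 for Acsbg2 and 0.058 for Slc27a3, and against animal 4 0.19 for Acsl4 and 0.21 for Acsbg1. Acsl4 was at 0.036 with the surface trend subtracted and 0.00087 with scaled arrays, and medians over probes gave -0.026 for Acsl6 and -0.27 for Acsm2. Single probes gave 0.0059 for Acsl4, -0.74 and -0.099 for Acsl6, -0.43 and -0.11 for Acsm2, -0.26 for Acss2 and -0.055 for Ighm. Leaving out an array gave -0.27 to 0.19 for Acsl4, -0.054 to 0.067 for Acsl5, -0.011 to 0.12 for Acsm2, -0.056 to 0.35 for Acsm4, -0.18 to 0.033 for Acsf2, -0.28 to 0.13 for Acsbg1, -0.38 to 0.26 for Slc27a3 and -0.26 to 0.016 for Slc27a4. The cause of these reversals was not tested.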
